A study of Mus musculus with 2 samples.

Results

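The keratinocyte connexins Gja1, Gjb2, Gjb5 and Gjb6 were followed in wounded mouse back skin with and without epidermal beta-catenin. All probes whose symbol was one of these 4 genes were taken, which gave 6 of the 25697 probes on the array and 4 of its 17873 genes. Gja1, Gjb5 and Gjb6 had 1 probe each and Gjb2 had 3. The knockout mice were b-catenin fl/fl with a Cre driven by the keratin 14 promoter (K14), so that beta-catenin was removed from keratinocytes expressing keratin 14, and the controls were b-catenin fl/fl littermates. All animals were C57BL6, were 3 months old and were on a low calcium diet, which the controls therefore shared. Each mouse received 2 full-thickness 6-mm punch wounds on the back, and the tissue was cut out with an 8-mm punch after 3 days. RNA of 3 mice was pooled for each sample and hybridised to 1 Illumina bead array per genotype, so no spread between animals or arrays could be estimated and no difference below was tested.

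Connexins are membrane proteins that assemble as hexamers, and a hexamer in one cell docks to a hexamer in its neighbour to form a gap junction channel for ions and small metabolites. Gja1 (connexin 43) is the main connexin of basal and spinous keratinocytes and is also made by fibroblasts, endothelium and smooth muscle. Gjb2 (connexin 26) and Gjb6 (connexin 30) are beta connexins with low levels in resting interfollicular epidermis that are known to increase in wounded or hyperproliferative epidermis, while Gja1 is known to decrease at the early wound edge. Gjb5 (connexin 31.1) belongs to the differentiating layers of rodent epidermis. Gjb2 and Gjb6 lie next to each other with Gja3 on chromosome 14, and Gjb5 lies on chromosome 4.

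The proximal promoters of the 4 genes are shown because the deleted protein is a coactivator of TCF/LEF factors and because 1 of the 4 genes was below detection. The 250 bases before the annotated start were taken from RefSeq (GRCm38.p6), at chr10:56377050-56377299 on the plus strand for Gja1, and on the minus strand at chr14:57104703-57104952 for Gjb2, chr4:127358165-127358414 for Gjb5 and chr14:57133612-57133861 for Gjb6. Capitals mark matches on either strand to a TCF/LEF core (CTTTGA or CTTTGT), an AP-1 site (TGANTCA), a GC box (GGGCGG) or a TATA motif (TATAAA), and no marked matches overlapped.
Gja1: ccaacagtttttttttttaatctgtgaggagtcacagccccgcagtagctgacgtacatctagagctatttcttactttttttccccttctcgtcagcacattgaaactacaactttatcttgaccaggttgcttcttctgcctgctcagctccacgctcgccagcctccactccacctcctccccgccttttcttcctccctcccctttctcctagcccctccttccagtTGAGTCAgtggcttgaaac
Gjb2: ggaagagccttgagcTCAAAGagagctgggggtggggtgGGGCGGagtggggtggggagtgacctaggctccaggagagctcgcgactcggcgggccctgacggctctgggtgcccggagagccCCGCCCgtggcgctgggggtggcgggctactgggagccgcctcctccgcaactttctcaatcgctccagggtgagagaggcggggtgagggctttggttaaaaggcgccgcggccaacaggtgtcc
Gjb5: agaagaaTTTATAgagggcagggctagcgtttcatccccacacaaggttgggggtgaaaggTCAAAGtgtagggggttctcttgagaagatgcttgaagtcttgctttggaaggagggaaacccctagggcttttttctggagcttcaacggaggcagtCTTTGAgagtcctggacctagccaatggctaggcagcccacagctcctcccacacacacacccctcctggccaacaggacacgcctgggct
Gjb6: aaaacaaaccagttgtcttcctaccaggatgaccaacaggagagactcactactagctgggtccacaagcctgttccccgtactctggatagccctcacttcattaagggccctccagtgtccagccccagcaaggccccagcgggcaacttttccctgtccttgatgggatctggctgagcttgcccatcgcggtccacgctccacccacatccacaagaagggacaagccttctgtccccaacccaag
Gja1 held 1 AP-1 match, from position -19 to -13 relative to the start, and no TCF/LEF match. Gjb2 held 2 GC boxes and 1 TCF/LEF match, Gjb5 held 2 TCF/LEF matches and 1 TATA motif far from the start, and Gjb6 held none of the 4 motifs. Of 27025 mouse promoter windows of this length, 27.7% held a TCF/LEF core, 6.87% an AP-1 site, 32.9% a GC box and 13.0% a TATA motif. A match is a run of letters and was not tested for binding, and these windows leave out distal elements.

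Before the connexin values, 3 facts about the arrays bear on them. Raw intensities spanned 118.5 to 40798.1 on the control array and 120.4 to 40969.4 on the knockout array, where the median was slightly lower (177.3 and 173.5). A probe counted as detected at 181.8 or more in the control and 177.9 or more in the knockout, the level that fewer than 1% of negative control beads reached. The targeted gene Ctnnb1 read 2325 and 2344 (normalized intensity, control and knockout) on its brighter probe and 1048 and 932 on the other. Whether either lies within the deleted exons was not known, so they check nothing about the genotype. Transcripts of slow skeletal muscle differed widely between the pools. The normalized intensities in control and knockout were 104 and 4390 for Myl2, 51.9 and 2000.0 for Myl3, 552 and 3760 for Tnnc1, and 1181 and 5299 for Tnnt1. The last pair of the 6 slow muscle markers, Tnni1 and Myh7, passed the limit on the knockout array alone (bounds of at least 2.87-fold and 1.11-fold higher). Ddx3y, a Y-linked helicase named here after its value was seen, read 899 and 191 on 1 probe, while its other 2 probes were not detected on either array, and no list of Y-linked genes was compared.

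Gja1 was strongly expressed on both arrays and differed little between them. Its probe (ILMN_1244291) read a raw intensity of 13210.5 in the control, 72.7 times the detection limit, and 11418.8 in the knockout, 64.2 times the limit. After background correction and quantile normalization with neqc, the values were 12705 and 11686, a log2 difference of -0.12 (knockout minus control), or 8.02% lower in the knockout. The same probes were also processed in 4 other ways, namely with median scaling, with an offset of 50, without background correction, and as the authors' normalized intensities. With median scaling the sign turned (0.02), so no direction can be given for Gja1. Of the 480 detected probes within 2-fold of its brightness, 45.0% lay at least as far from 0 as Gja1 did. Whole wound tissue was measured, and fewer cells of a type cannot be told apart from less RNA per cell.

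Gjb6 was also well above background and stood slightly lower in the knockout. The probe (ILMN_1250356) read raw intensities of 4329 in the control and 3447.1 in the knockout, and normalized intensities of 3945 and 3560. The log2 difference was -0.15, or 9.76% lower, and it stayed below 0 in all 4 of the other ways, from -0.15 to -0.10. Of 1605 detected probes of similar brightness, 46.2% lay at least as far from 0, so that the size of the Gjb6 difference was an ordinary one on these arrays.

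Gjb2 was measured by 3 probes, all detected on both arrays, and these disagreed in sign. The brightest Gjb2 probe (ILMN_2999627) read raw intensities of 7598.6 in the control and 6352.1 in the knockout, a log2 difference of -0.11. The middle probe (ILMN_1227148) read 1767.1 and 1618.5, with a log2 difference of 0.09 after normalization, which lifts the dimmer knockout array. The dimmest (ILMN_2604713) read 1185.5 and 1199.7, with a log2 difference of 0.26. All 3 kept their sign in the 4 other ways, and the cause of their disagreement was not tested.
The range over the Gjb2 probes, 0.37 on the log2 scale, was wider than the difference of Gja1 or Gjb6. It was at least as wide in 47.4% of the 587 genes with 3 detected probes (median range 0.35), but in 17.1% of the 41 such genes whose probes were all at least as bright as the dimmest Gjb2 probe (median range 0.20). The mean over the 3 Gjb2 probes was 0.08. The same gene gave raw control intensities 6.41-fold apart between its brightest and dimmest probe, which is why the levels of different connexins are not ranked against each other here.

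Gjb5 was not detected. Its probe (ILMN_2766772) read a raw intensity of 152.8 in the control and 161.1 in the knockout, below the limits of 181.8 and 177.9, and no fold is given. This was the single Gjb5 probe, so the gene's level is known only to lie below what it could detect.

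**Figure D1:**
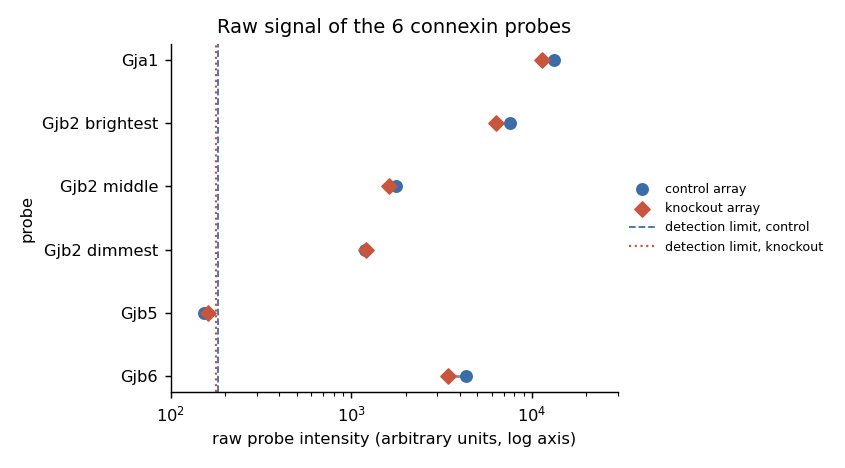
Raw intensity (log axis, arbitrary units) of the 6 probes of Gja1, Gjb2, Gjb5 and Gjb6, with a circle for the control array, a diamond for the knockout array and vertical lines at the detection limits (181.8 and 177.9). The 2 arrays lie close together at every probe, and Gjb5 lies to the left of both limits.

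None of the 3 detected genes (Gja1, Gjb2 and Gjb6, each by its brightest probe) reached 1.5-fold, the size used as a call here. Their median log2 difference was -0.12 with all 3 below 0, or -0.11 in the authors' intensities and -0.03 with median scaling, where Gja1 lay above 0. By the mean over its 3 probes, Gjb2 stood above 0 instead (0.08). Over all 9710 genes detected on at least 1 array, 3.52% passed 1.5-fold upward in the knockout and 4.48% downward, 8.00% in either direction. In the authors' normalized intensities the count of connexins was also 0, and 1.34% of the genes passed. With so few members, a count of 0 is near what that background gives. The quartiles of the log2 difference over all detected genes were -0.19 and 0.18, and Gja1, Gjb6 and the brightest and middle Gjb2 probes lay between them, whereas the dimmest Gjb2 probe lay above. Among the 3350 detected probes with a mean log2 intensity of at least 10, the quartiles were -0.13 and 0.14, and Gjb6 and the dimmest Gjb2 probe lay outside these.

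**Figure D2:**
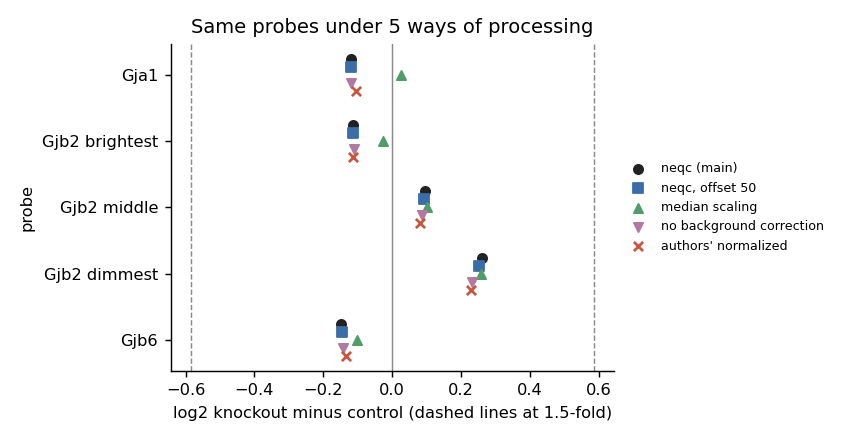
Log2 difference (knockout minus control, horizontal axis) of the 5 detected probes of Gja1, Gjb2 and Gjb6, each under 5 ways of processing (symbols); dashed lines mark 1.5-fold. Gja1 crosses 0 with median scaling (0.02), and all symbols lie within the lines.

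**Figure D3:**
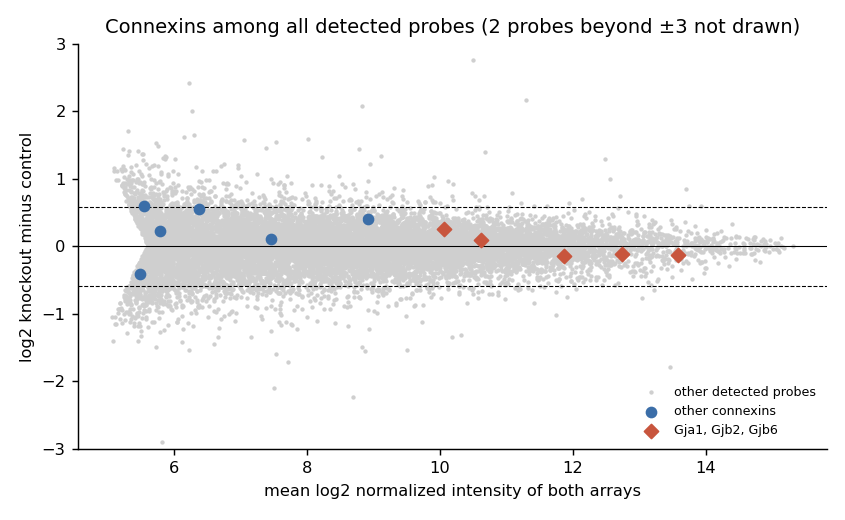
Log2 difference (knockout minus control) against mean log2 normalized intensity for all 12965 probes detected on at least 1 array, of which 2 lie beyond the axis; dashed lines mark 1.5-fold. The probes of Gja1, Gjb2 and Gjb6 (diamonds) lie within the bulk of bright probes, and the other connexins reported here (circles) are dimmer and spread from 0.60 for Gja6 to -0.41 for Gjd3.

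Other connexins were examined beside these genes. The array held probes for 11 of the 12 other connexin genes analysed here and for all 3 pannexins, related channel proteins that do not form gap junctions in the usual way. Of these 14 genes, 5 were detected on both arrays, 2 on 1 array and 7 on neither. By the fitted values 1 passed 1.5-fold upward (Gja6, detected in the knockout only) and 0 downward. The background over the 9710 genes detected on at least 1 array was 3.52% upward and 4.48% downward. Among the connexins and pannexins detected on both arrays none passed, where the background over 9057 genes was 2.22% upward and 3.12% downward. The median log2 difference of the 7 detected genes was 0.10, beside 0.00 over all detected genes.

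Among the vascular connexins, Gja4 stood above 0, while Gja5 and Gjc1 rested on dimmer probes with differences of 0.20 or less in the authors' intensities. Gja4 (connexin 37), a connexin of arterial endothelium, read raw intensities of 587.2 in the control and 639.8 in the knockout (log2 difference 0.40, or 0.32 in the authors' intensities). Gja5 (connexin 40), likewise of arterial endothelium, stood at 0.10 on its brightest probe (raw 313.7 and 301.3), or 0.055 in the authors' intensities. A dimmer Gja5 probe close to the limits (204.7 and 224.4) stood at 0.55, or 0.20 in the authors' intensities, and the last was not detected. Gjc1 (connexin 45), of smooth muscle and the heart, barely passed the limits (185 and 187.8, log2 difference 0.23, or 0.06 in the authors' intensities). All 5 detected of 6 endothelial markers also stood above 0 (median 0.30). The summed normalized intensity of all 6, the undetected Kdr included, was 2381 and 2823. The brightest were the sialomucin Emcn at 0.24 and Pecam1 at 0.30, and Kdr was not detected. Cdh5, VE-cadherin, was 1.59-fold higher by neqc but 1.32-fold in the authors' intensities, below the call. Their part in the Gja4 and Gja5 values was not tested.

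The remaining connexins were dim. Gja6 (connexin 33), an X-linked connexin known from testis, was seen in the knockout only (169.8 and 185.3) and was at least 1.19-fold higher on the neqc scale, against 1.10-fold in the authors' intensities. Gjd3 was seen in the control only (185.8 and 168.5, at least 1.06-fold lower). Gja3, Gja10, Gjb1, Gjc3, Gjd2 and Gjd4 were below the limits on both arrays. Among pannexins, Panx1 (raw 1193.7 and 995, log2 difference -0.06) and Panx3 (2569.4 and 2282.9, 0.04) were detected and close to 0, and Panx2 was not detected.

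**Figure D4:**
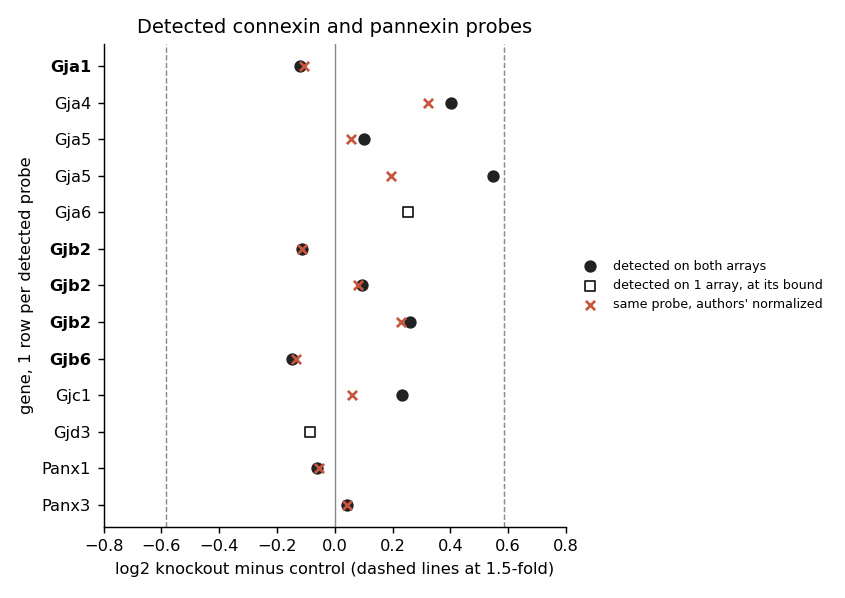
Log2 difference (knockout minus control, horizontal axis) of the connexin and pannexin probes detected on at least 1 array, with the keratinocyte connexins in bold; crosses give the authors' normalized intensities, squares the bound of a gene detected on 1 array, and dashed lines 1.5-fold. All points lie within the dashed lines, the farthest from 0 being the dimmer Gja5 probe at 0.55 (0.20 in the authors' intensities).

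Genes whose proteins bind, traffic or degrade connexins were mostly close between the arrays. Of 13 listed, 12 had a probe and 11 were detected. Their median log2 difference was 0.03 (0.00 over all detected genes). Over the 9710 genes detected on at least 1 array, 3.52% passed 1.5-fold upward and 4.48% downward. Among the detected partner genes, 1 passed upward by the fitted values and 0 downward. That gene was Tjp1 (ZO-1, the scaffold that binds the tail of connexin 43), which was detected in the knockout only (raw 174 and 190.3). Against the detection limit of the control it was at least 1.31-fold higher on the neqc scale, and its ratio was 1.11-fold in the authors' normalized intensities. The next widest differences were in Nedd4, a ubiquitin ligase that acts on connexin 43 (0.18), and Src, a kinase that phosphorylates it (0.14).

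Markers of the cell layers that carry these connexins had medians from -0.05 to 0.12 by neqc, with some members well away from 0. With median scaling the medians of the basal, suprabasal and wound-edge lists were 0.003, 0.14 and 0.29. The 6 basal keratinocyte markers had a median log2 difference of -0.05 (summed normalized intensity 76005 in the control and 75176 in the knockout), with Krt14 at 0.05 and Krt5 at 0.14. The widest of them was Trp63, a transcription factor of basal keratinocytes, at -0.46 (raw 5549.9 and 3609.2). Of 7 suprabasal markers 5 were detected, with a median of 0.02, Krt10 at -0.07 and the cornified envelope protein Lor at -0.03. Dsg1a was not detected but is included in the summed intensity (80489 and 83726). The suprabasal keratin Krt1 stood at 0.48 (raw 7185.4 and 8828.3). The 6 wound-edge markers had a median of 0.12, with 5 above 0 (summed 108236 and 121317), Krt17 at 0.10 and Stfa1 at 0.11, and the widest was Krt6b at 0.34. Trp63, Krt1 and Krt6b were named after their values were seen. These lists hold the labelled tissue's defining keratins, all detected on both arrays, and their part in the Gja1, Gjb2 and Gjb6 values was not tested.
Cells other than keratinocytes that make Gja1 were also compared. Fibroblast markers had a median of -0.03, 3 above and 3 below 0 (summed 45467 and 41431). Dcn stood at -0.09 on its brightest probe and -0.36 on its other, and Col1a1 at 0.14. Lum, named after its value was seen, stood at -0.53. Smooth muscle and pericyte markers had a median of 0.07, 5 of 6 above 0 (summed 15797 and 16913), with Acta2 at 0.10 and Myh11 at 0.05. Pdgfrb, also named after its value was seen, was the widest of them at 0.45, or 0.31 in the authors' intensities. All 6 macrophage markers stood below 0 (median -0.20, summed 34015 and 26219), with the mannose receptor Mrc1 1.70-fold lower and C1qb at -0.24. The part of these cells in the Gja1 value was not tested.

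**Figure D5:**
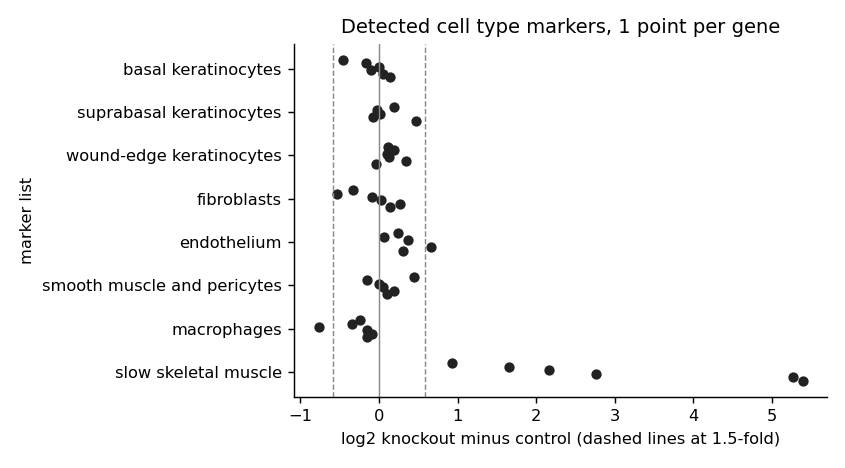
Log2 difference (knockout minus control, horizontal axis) of detected cell type markers, 1 point per gene by its brightest probe, with dashed lines at 1.5-fold. Keratinocyte and fibroblast markers lie within the lines, Cdh5 (0.67) and Mrc1 (-0.77) lie beyond them, and slow muscle markers reach 5.40.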

How the data were processed

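Biotin-labelled total RNA of 2 samples, each a pool, was read on Illumina bead arrays, and the submitters' processing notes name GenomeStudio 2011.1. The authors deposited raw intensity per probe and a normalized intensity (method not given in the sources used here). Their deposited detection p-values do not follow the intensities row by row (Spearman's rho over all probes 0.00244 in the control and -0.000406 in the knockout), so sorted p-values were given to sorted intensities of the same array, and a probe with a p-value under 0.01, or as bright as the dimmest such probe, counted as detected.

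Intensities were normalized with neqc (limma 3.58.1, R 4.3.3; offset 16), which makes the arrays' distributions equal, hides a shift of all genes and gives wider folds for dim probes than intensities without background correction. Symbols were updated through RefSeq (GRCm38.p6, 25376 of 25697 probes matched). A gene was represented by its brightest probe. A call was 1.5-fold with detection on at least 1 array. For a gene detected on 1 array, the bound was taken against the dimmest detected level of the other array, or its own value there if brighter.

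Named were all probes of the 4 connexins, all detected connexins and pannexins (some are not reported here), Ctnnb1, the 3 widest partner genes, and the 2 brightest markers of each list plus any past 1.5-fold. Members and lists were chosen with earlier results of these data known. The procedure was tested on simulated data with changes of 2-fold or more in probes well above background. That simulation does not cover differences as small, or probes as dim, as those reported here. Alternatives were the authors' values, median scaling, no background correction, an offset of 50, no detection filter, a 2-fold call and the mean over probes. The number of arrays, 1 per group, limits the precision.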

Additional observations from a re-analysis of the deposited data

How the results depend on the processing

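The count of keratinocyte connexin genes past 1.5-fold was 0 in all 8 alternatives run for it, of which a 2-fold call and detection on both arrays could give only 0, and the median over the 6 probes, the undetected Gjb5 probe included (-0.01), moved at most to 0.06, with median scaling. The count of other connexins and pannexins past 1.5-fold, 1 by neqc, was 0 with an offset of 50, 0 without background correction, 0 in the authors' normalized intensities, 0 at 2-fold and 0 among genes detected on both arrays, a setting chosen after seeing the data. The count of partner genes, 1 by neqc, was 0 in each of these 5 settings. The count of all detected probes, 1116 by neqc, was 437 with an offset of 50, 150 without background correction, 159 in the authors' intensities, 162 at 2-fold and 658 among probes detected on both arrays. Background correction and a small offset widen the differences of dim probes by construction. No value of a named connexin or partner past 1.5-fold changed sign. No paired analysis was possible because each group has 1 array. Signal over background limits Gjb5, Gja6, Gjc1, Gjd3, Tjp1 and the dimmer detected Gja5 probe, which lay close to or below the detection limits.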

Other observations

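The other junctions of the epidermis gave values beside those of the connexins; the genes named in this paragraph were chosen after their values were seen. Of 13 desmosome genes with a probe, 10 were detected, with a median log2 difference of 0.07 and 7 of the 10 above 0. The plaque protein Pkp2 stood at 0.64 on its brightest probe (0.32 in the authors' intensities) and 0.32 on another. The desmosomal cadherins Dsc1 (raw 370 and 269.9) and Dsc3 (598.8 and 427.2) stood at -0.57 and -0.42 (-0.32 for both in the authors' intensities), and Dsg1b and Dsg3 at 0.14 and 0.08. Of 12 tight junction genes with a probe, 11 were detected, with a median of -0.01, 5 above 0 and 6 below. The claudins Cldn1 (raw 1668.1 and 1150.1) and Cldn23 (1035.6 and 754.5) stood at -0.36 and -0.29, and Cldn4 at 0.17. Nearer the detection limits, Ocln (raw 216.1 and 182.8) stood at -0.54 and F11r (190.9 and 205.5) at 0.50. Cldn7 was seen in the control only (208.7 and 168.9) and was at least 1.48-fold lower on the neqc scale, against a ratio of 1.17-fold in the authors' intensities. The probes of Krt6a differed from each other, with -0.04 on the brighter and 0.66 on the dimmer. None of these differences has a replicate.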
